A study of Arabidopsis thaliana with 18 samples.

Results

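Leaves of Arabidopsis thaliana treated with the ethyl acetate sub-fraction of an extract of the brown alga Ascophyllum nodosum (EAA) were compared between day 5 and day 1 of treatment. Of the 18 Affymetrix arrays of the series, 6 make up this comparison: the 3 titled EAA with NaCl on day 1 and the 3 titled EAA with NaCl on day 5, 1 array per sample. All plants, the control plants included, had been in 150 mM NaCl for 24 hours at an age of 2 weeks before the EAA or, for the controls, aqueous methanol was given. A further 6 arrays, 3 from each day, served as the salt reference. Their source name gives NaCl without extract while their title and description give EAA; they were grouped by the source name, so each statement on the reference rests on that label. The day 5 plants were also 4 days older than the day 1 plants, so plant age, time since salt and time since EAA cannot be told apart within the EAA arrays. The labels give no hour of harvest, no ecotype and no number of plants per sample, and they do not say whether replicates came from separate plantings; p-values measure the spread between these samples.

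Extracts of this alga are used as plant biostimulants. Salt limits the uptake of water and loads cells with ions, and leaves under salt are known to respond through abscisic acid (ABA), which turns on genes of protective proteins such as late embryogenesis abundant (LEA) proteins. Ageing leaves dismantle chlorophyll and photosynthetic proteins and export sugars and amino acids, while young leaves still expand and build cell walls and microtubules.

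Signals are log2 values as deposited, differences are day 5 minus day 1 in log2 units, SE is their standard error in the limma fit, and adjusted p stands for limma's p-value after Benjamini-Hochberg adjustment over all 13648 probe sets tested, with a threshold of 0.05. Only probe sets with a 6-array mean signal of at least 4.01 were tested; 40 percent of the 22746 probe sets other than controls lay below that filter value. The number of arrays, 3 against 3, limits the precision of every value. The day 1 arrays correlated with each other at 0.991 to 0.992 and the day 5 arrays at 0.957 to 0.984, and the median SD within a group was 0.126 on day 1 and 0.202 on day 5. Day 5 replicate 1 stood apart. For 1 pair of actin probe sets its difference between 3' and 5', a sign of RNA quality, was 2.78. The other 5 EAA arrays had 1.61 to 1.94. Another actin pair gave 4.12, within the 3.37 to 4.43 of the other 5 arrays. A pair for GAPDH gave 2.24, against 0.61 to 0.99, and another GAPDH pair 0.79, against -0.13 to 0.39. Over the probe sets that changed, day 5 replicate 1 lay a median of 0.944 from the day 1 mean in the direction of change. The other day 5 arrays lay at 0.762 and 0.784. Of the 3, day 5 replicate 1 was the farthest for 56.3% of these probe sets. Every count and named gene was also computed without this array, and the values are given below where they end or add a call of a named gene or move a value by over 1.5 times.

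The few markers that could be measured did not go against the leaf label. Paired with a named probe set were 3 of 18 mesophyll, 3 of 31 root, 2 of 19 flower and 3 of 12 shoot meristem markers. For the stomatal lineage it was 3 of 13, and for phloem 0 of 10. Of the mesophyll genes measured, RCA (rubisco activase) had a mean signal of 13.53 on day 1 and 13.79 on day 5, PRK (phosphoribulokinase) of 12.03 and 11.81, and SBPASE (sedoheptulose-bisphosphatase) of 11.24 and 11.23, and none of the 3 passed the test. All 3 measured root markers, both flower markers, all 3 shoot meristem markers and 2 of 3 stomatal lineage markers lay below the filter, at means of 2.98 to 3.81. The third stomatal lineage gene, FMA, had means of 4.91 on day 1 and 4.78 on day 5. The xylem gene GUT2 had 4.48 and 4.51, and neither of these genes passed the test. The trichome regulator GIS rose by 1.54 (SE 0.20, adjusted p = 0.000567), from 6.27, 6.44 and 5.89 on the day 1 arrays to 7.51, 7.62 and 8.09 on the day 5 arrays. TRY, the other trichome gene tested, went from a mean of 4.49 to 4.96 (0.48, adjusted p = 0.276) and did not pass. The median difference of these 2 genes was 1.01 with EAA and 2.35 in the reference. In whole leaves, fewer cells of a type and less RNA per cell cannot be told apart, for GIS and for every gene below.

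Between day 1 and day 5, 5703 of 13648 probe sets changed (41.8%), 2568 of them higher (18.8% of all tested) and 3135 lower on day 5 (23%). The day 1 and day 5 arrays did not overlap for 7777 probe sets (57%). Among the changes, 925 rises and 1239 falls were at least 2-fold, 225 and 339 at least 4-fold, and 55 and 111 at least 8-fold. Of the rises 156 had a day 1 mean under the filter value, and of the falls 263 had a day 5 mean under it. These probe sets passed the filter only through the day with the higher signal, and they enter the counts and medians. Examples are LEA18, AtLEA4-1, Hop3, WRKY22, AGL19, scpl33 and OCT1 among the rises and COR27 and PDF1.2 among the falls. The median of all non-control probe sets was lower on day 5 by 0.11 (-0.114), so each difference is 0.11 higher on a scale centred on that median; no called value changed sign there, but 57.7% of the calls were then rises (3424 against 2511 falls), against 45% as deposited and 51.3% with quantile normalization. Which direction held more calls therefore depends on the scaling. The counts of the gene groups below are to be read against these percentages. They cover only members paired with a named probe set that passed the filter. Of 81 light and clock genes with a locus 5 were paired, of 98 ABA and dehydration genes 13, and of 55 nuclear photosynthesis genes 9. Of 71 chloroplast-encoded genes 69 were paired. The probe sets unnamed here numbered 8730, so most counts describe the members tested and not a whole pathway or family. Of the 1068 tested probe sets with a gene symbol 184 were higher and 260 lower.

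**Figure D1:**
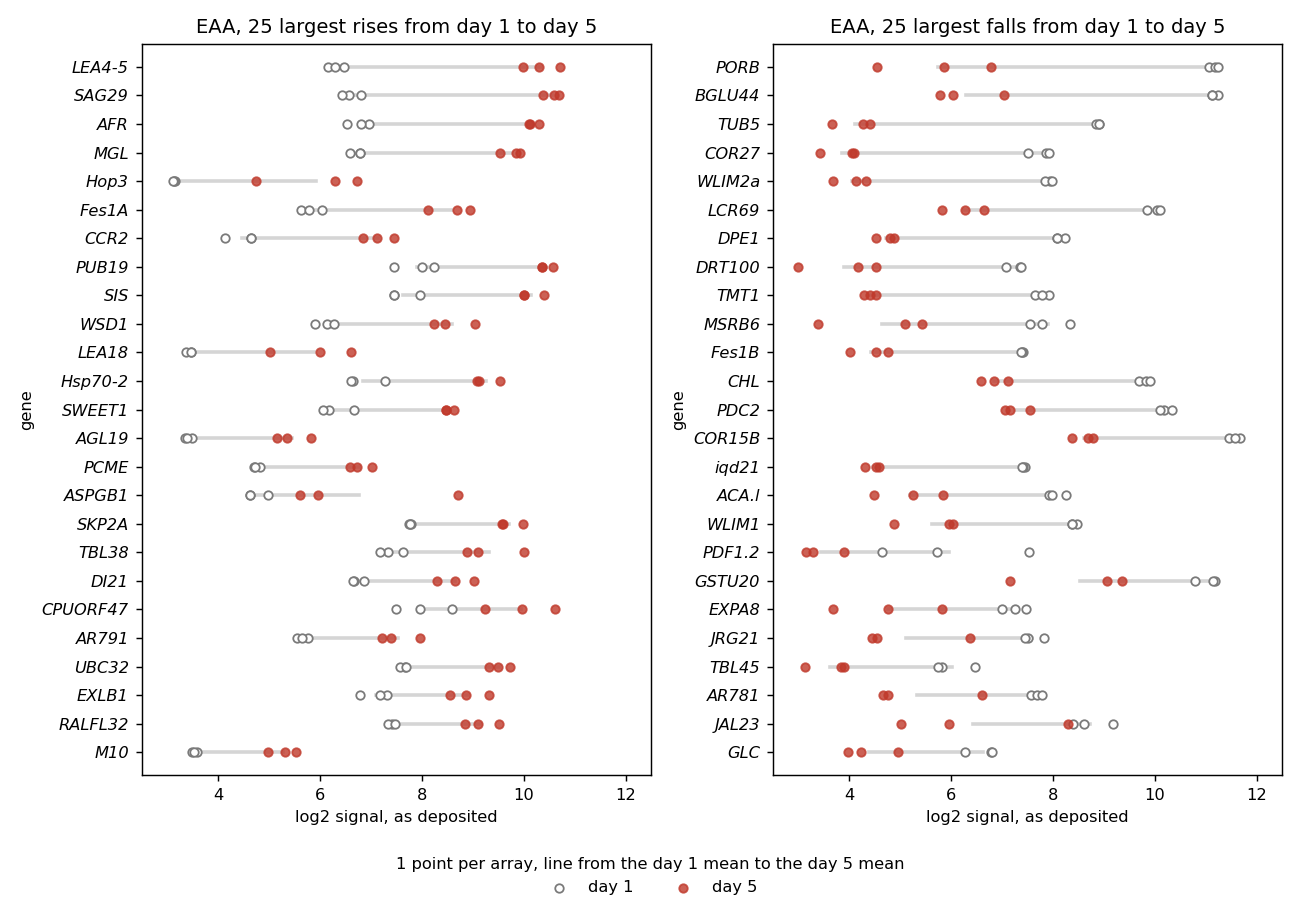
Log2 signal of the 25 largest rises (left) and the 25 largest falls (right) with EAA among genes with a symbol, 1 point per array, open for day 1 and filled for day 5, with a line between the group means. Day 1 points lie close together for most genes, and day 5 points spread more, as for ASPGB1, where 1 day 5 array stands at 8.71 above the other two.

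Genes of the response to water loss changed in both directions. Of 12 tested genes of the ABA and dehydration list 6 rose and 3 fell, with a median difference of 0.76, against -0.02 over all probe sets tested. With the filter at the 60th percentile, which 9 of the 12 passed, 4 were higher and 3 lower and the median turned to -0.09. LEA4-5, a late embryogenesis abundant gene, stood at 6.15, 6.48 and 6.29 on the day 1 arrays and at 10.70, 9.98 and 10.30 on the day 5 arrays. The arrays of the 2 days lay far apart, and the rise was 16.3-fold (4.02, SE 0.19, adjusted p = 3.89e-06). The second LEA gene, LEA18, went from 3.48, 3.38 and 3.46 to 6.61, 5.02 and 6.01 (difference 2.44, SE 0.34, adjusted p = 0.000813), and AtLEA4-1 from 3.33, 3.75 and 3.82 to 5.54, 4.49 and 5.02 (difference 1.39, adjusted p = 0.00354). For both, all day 1 arrays lay under the filter value of 4.01, close to the lowest signals of the arrays, so that the size of these rises is uncertain. Both genes passed the filter only through their day 5 signals, and both count among the 6 rises. ALDH7B4, an aldehyde dehydrogenase known to be induced by drought and salt, rose by 1.72 from 10.66, 10.69 and 10.54 to 12.49, 12.40 and 12.15 (adjusted p = 5.39e-05), and the drought-induced genes DI21 and DI19 rose by 1.92 (adjusted p = 0.000135) and 0.83 (adjusted p = 0.00581).

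The 3 falls of this list were all cold-regulated genes. COR15B, which encodes a protective protein of the chloroplast stroma, stood at 11.45, 11.67 and 11.56 on day 1 and at 8.68, 8.37 and 8.79 on day 5, a fall of 2.95 (SE 0.14, adjusted p = 4.72e-06). Its close relative COR15A dropped by 0.66 (from 12.59, 12.49 and 12.41 to 11.86, 11.85 and 11.81, adjusted p = 0.0045), and the dehydrin LTI30 dropped by 0.62 (adjusted p = 0.0181). In neither gene did the arrays of the days overlap, and LTI30 did not pass without day 1 replicate 1 or 2 or with quantile normalization. Without day 5 replicate 1, 7 genes of the list rose and 3 fell.

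Of 62 heat shock and chaperone genes with a locus 9 were tested. All 9 changed, 5 up and 4 down (median 0.91, or 0.20 with the filter at the 60th percentile). AT5G48570, the FKBP-type peptidyl-prolyl isomerase ROF2, had signals of 4.94, 4.81 and 4.75 on day 1 and 8.27, 7.6 and 7.96 on day 5, an 8.64-fold rise (3.11, SE 0.18, adjusted p = 1.09e-05). Fes1A, a nucleotide exchange factor of Hsp70 chaperones, rose from 5.64, 6.04 and 5.79 to 8.70, 8.12 and 8.95 (2.77, adjusted p = 4.47e-05), while its paralogue Fes1B fell from 7.40, 7.40 and 7.37 to 4.01, 4.52 and 4.75 (-2.96, adjusted p = 1.77e-05) and Fes1C fell by 0.74 (adjusted p = 0.00416). The genes for the Hsp70-Hsp90 organising proteins, which link both chaperones, also parted: Hop3 went from 3.15, 3.14 and 3.13 to 6.30, 4.75 and 6.72 (2.79, adjusted p = 0.00141) and Hop2 rose by 0.91, while Hop1 fell by 0.51.

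Hsp70-2, a heat shock protein 70 gene, rose by 2.4 (from 7.29, 6.64 and 6.61 to 9.53, 9.13 and 9.09, adjusted p = 7.62e-05), and the calreticulin gene CRT1b, of the endoplasmic reticulum, fell by 0.87 (adjusted p = 0.0157). Of the 3 Hop3 values on day 5 replicate 2 was the low one, and all 3 day 1 values lay under 4.01. The 5 rises kept their call without day 5 replicate 1, whereas 2 in place of 4 falls passed without day 1 replicate 3; the CRT1b fall was also lost without day 1 replicate 1 and the Hop1 fall without day 5 replicate 2.

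**Figure D2:**
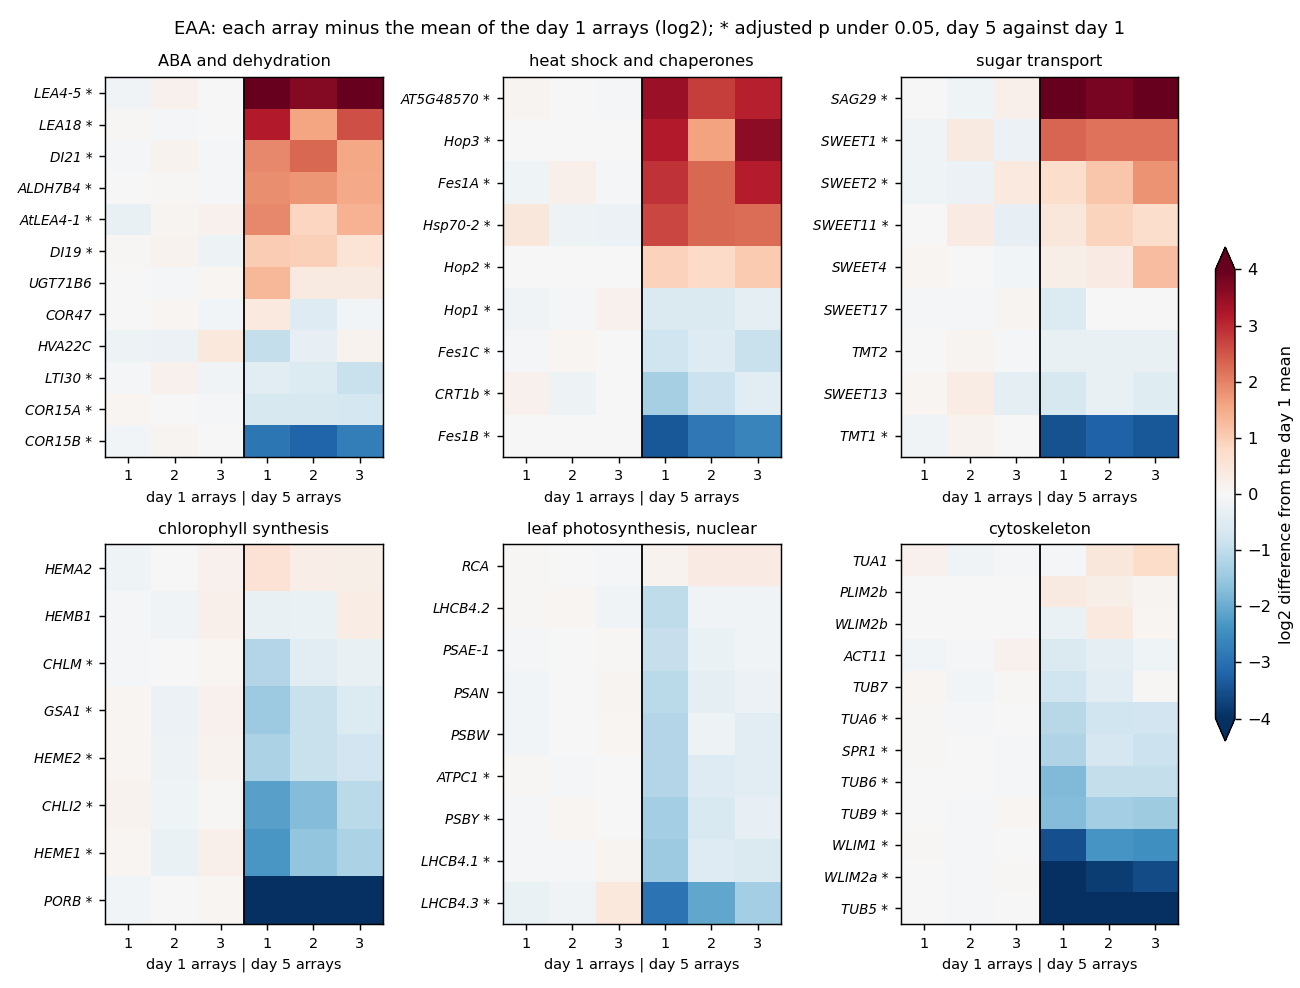
Each of the 6 EAA arrays minus the mean of the day 1 arrays (log2, red higher, blue lower, colours saturate at 4) for the tested members of 6 gene lists; a star marks an adjusted p under 0.05 between the days. Dehydration and chaperone genes hold both strong rises and strong falls, and in the photosynthesis panel day 5 replicate 1 is the lowest array for each of the 4 genes that changed.

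Genes that move and store sugars changed in both directions. Of 9 tested sugar transport genes 4 rose and 1 fell (median 0.60, but 0.29 without day 5 replicate 3 and 0.21 with the stricter filter at the 60th percentile). SAG29, known also as SWEET15, a sucrose exporter that marks senescing leaves, stood at 6.57, 6.42 and 6.80 on day 1 and 10.68, 10.39 and 10.60 on day 5, a 15.5-fold rise (3.96, SE 0.14, adjusted p = 1.30e-06). The glucose transporter SWEET1 rose by 2.22 (from 6.17, 6.68 and 6.06 to 8.63, 8.47 and 8.48, adjusted p = 4.33e-05), SWEET2 by 1.2 (adjusted p = 0.0107) and SWEET11, which exports sucrose from the phloem parenchyma, by 0.68 (adjusted p = 0.0237); SWEET11 did not pass without day 1 replicate 1 or 3 or without day 5 replicate 2. TMT1, which loads sugars into the vacuole, fell 10.3-fold, from 7.64, 7.92 and 7.79 to 4.29, 4.53 and 4.40 (-3.37, adjusted p = 2.00e-06); a second gene of the list fell without day 1 replicate 3.

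Of 7 starch and sucrose genes 2 rose and 2 fell (median 0.18). Without day 5 replicate 1, 3 rose and 2 fell and the median was -0.14. With all 18 arrays in the fit 1 rose and 1 fell. APL3 and APL4, large subunits of ADP-glucose pyrophosphorylase, the first committed enzyme of starch synthesis, rose by 1.65 (from 7.10, 7.05 and 7.34 to 9.19, 8.81 and 8.45, adjusted p = 0.000318) and by 1.54 (adjusted p = 0.00531). DPE1, the disproportionating enzyme of starch breakdown in plastids, fell from 8.08, 8.23 and 8.08 to 4.80, 4.87 and 4.52 (-3.4, SE 0.14, adjusted p = 2.06e-06), and the amylase gene AMY1 fell by 1.01 (adjusted p = 0.0146). The 2 rises and the DPE1 fall are each larger than the spread of the arrays; AMY1 stood at 7.03 on day 5 replicate 2 beside 7.46 to 7.59 on day 1, and its fall did not pass without day 1 replicate 1 or 3.

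Amino acid turnover genes were mostly higher where they changed: of 13 tested, 5 rose and 1 fell (median 0.25). The share that changed, 46.2%, was near the 41.8% of all probe sets. MGL, methionine gamma-lyase, which breaks down methionine, rose 8.22-fold from 6.79, 6.59 and 6.79 to 9.53, 9.84 and 9.93 (3.04, SE 0.14, adjusted p = 3.61e-06). AT4G33150, the bifunctional lysine-ketoglutarate reductase of lysine breakdown, went from 7.81, 7.72 and 8.08 to 10.43, 10.24 and 10.05 (2.37, adjusted p = 1.55e-05). Both genes showed no overlap between the days. PPDK, pyruvate orthophosphate dikinase, known to help remobilise nitrogen from ageing leaves, rose by 1.34 (adjusted p = 6.96e-05) and AAH, allantoate amidohydrolase of purine breakdown, by 0.94 (adjusted p = 0.000696).

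The asparaginase gene ASPGB1 stood at 8.71, 5.60 and 5.97 on the day 5 arrays, against 4.98, 4.64 and 4.63 on day 1, so that day 5 replicate 1 holds most of its difference of 2.01 (SE 0.70, adjusted p = 0.0484), which did not pass without any 1 of the day 1 arrays. Without day 5 replicate 1 it was 1.04 (SE 0.17, adjusted p = 0.00114). BCAT4, which starts the chain elongation of methionine for glucosinolates, fell by 1.54 (adjusted p = 0.00192). Without day 5 replicate 1, 6 genes of this list rose and 4 fell, and 2 fell without day 1 replicate 2.

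Of 7 tested genes of chlorophyll breakdown and leaf senescence 2 rose, SAG29 and the transcription factor gene WRKY22 (1.12, adjusted p = 0.0267), and 1 fell, YLS5, by 0.73 (adjusted p = 0.00376). The share that changed, 42.9%, was near that of all probe sets. WRKY22 went from 3.69, 3.76 and 3.84 to 5.73, 4.69 and 4.22 and did not pass without any 1 of the day 1 arrays, and it was 0.69 (adjusted p = 0.00719) without day 5 replicate 1. Of 12 tested autophagy genes 3 rose and 1 fell, or 33.3%, a share near that of all probe sets. ATG8H, a ubiquitin-like protein of the autophagosome, rose by 1.11 (from 5.76, 5.98 and 5.78 to 7.22, 6.69 and 6.93, adjusted p = 0.00104), ATG8B by 0.66 (adjusted p = 0.00527) and the vacuolar processing enzyme gene BETA-VPE by 1.22 (adjusted p = 0.00129). The single fall, of ATG8D (-0.44, adjusted p = 0.0446), was lost without day 1 replicate 2 or 3, without day 5 replicate 2 or 3 and with median centring or quantile normalization. Without day 5 replicate 1, 5 genes rose. Of 9 energy starvation genes 2 rose and 3 fell, among them NDB2, an external NADH dehydrogenase of mitochondria, which rose by 1.53 (adjusted p = 0.000158), and the pyruvate decarboxylase gene PDC2, which fell from 10.18, 10.33 and 10.10 to 7.15, 7.55 and 7.06 (-2.95, adjusted p = 6.68e-06). The energy list kept 1 of its 2 rises without any 1 day 1 array and without day 5 replicate 1 or 3.

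Chlorophyll synthesis held the largest fall among genes with a symbol. Of 8 tested genes 6 fell and none rose (median -0.97). PORB, protochlorophyllide oxidoreductase B, which makes chlorophyllide in the light, had signals of 11.05, 11.17 and 11.23 on day 1 and of 4.54, 6.79 and 5.86 on day 5, a 42.9-fold fall (-5.42, SE 0.47, adjusted p = 7.12e-05). Day 5 replicate 1 was the lowest, and even the highest day 5 array lay over 4 units below day 1. Earlier steps moved less: the uroporphyrinogen decarboxylase genes HEME1 and HEME2 fell by 1.73 (adjusted p = 0.0013) and 0.98 (adjusted p = 0.00219), CHLI2, a magnesium chelatase subunit, by 1.66 (adjusted p = 0.0014), GSA1, of the synthesis of aminolevulinic acid, by 0.96 and the methyltransferase CHLM by 0.63. GSA1 did not pass without day 1 replicate 3, and CHLM did not pass without any 1 of the day 1 arrays, without day 5 replicate 2 or with median centring; without day 5 replicate 1 CHLM was -0.36 (adjusted p = 0.0227). The 6 falls passed without day 5 replicate 1 as well, where the median was -0.77. With quantile normalization 1 gene also rose, and so did 1 with median centring, HEMA2, whose deposited difference of 0.36 did not pass (adjusted p = 0.09).

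Nuclear genes of the photosynthetic machinery were lower where they changed. Of 9 tested, 4 fell and none rose (median -0.59). The share that changed, 44.4%, was near the 41.8% of all probe sets. LHCB4.3, an antenna protein of photosystem II, went from 9.09, 9.21 and 9.77 to 6.39, 7.26 and 7.99 (-2.14, SE 0.37, adjusted p = 0.00237), and its paralogue LHCB4.1 from 13.04, 13.04 and 13.18 to 11.63, 12.56 and 12.52 (-0.85, adjusted p = 0.0267). PSBY, a small photosystem II protein, fell by 0.77 and ATPC1, of the chloroplast ATP synthase, by 0.69. In each of the 4 genes day 5 replicate 1 was the lowest array. Without it 5 fell and 1 rose, the median was -0.31, and LHCB4.1 (-0.55, adjusted p = 0.00195), PSBY (-0.47, adjusted p = 0.00917) and ATPC1 (-0.45, adjusted p = 0.00515) still fell, whereas leaving out any single day 1 array left 1 fall; PSBY also did not pass without day 5 replicate 2. Of the 3 Calvin cycle and photorespiration genes tested, none passed, and 1 rose without day 5 replicate 1.

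Few genes encoded in the chloroplast changed: of 69 tested, 1 rose and 4 fell (median -0.05). The single rise was rps18, a ribosomal protein gene, by 0.54 (adjusted p = 0.0202; lost without day 1 replicate 2), and the falls were led by ndhH, of the NDH complex, which fell by 0.73 (from 7.35, 7.61 and 7.5 to 7.08, 6.65 and 6.56, adjusted p = 0.00879). The count of falls was 14 (with 2 rises and a median of -0.15) without day 5 replicate 1, 2 without day 1 replicate 1, 1 without day 1 replicate 2 or 3, and 2 without day 5 replicate 2 or 3. Of 10 mitochondrial genes 2 rose, nad9 by 1.31 (from 4.36, 4.39 and 4.33 to 6.29, 5.76 and 4.94, adjusted p = 0.00877) and ccb452 by 0.85. Without day 5 replicate 1, or without any 1 day 1 array, 1 rose, it was 4 with median centring or quantile normalization and 5 without day 5 replicate 3; ccb452 also did not pass without day 5 replicate 2 and was 0.53 without day 5 replicate 1, where it did not pass either. The labelling started from poly(A) RNA per the labels, which organelle transcripts largely lack, so their signals may not follow their abundance.

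Cytoskeleton genes fell where they changed. Of 12 tested, 7 fell and none rose (median -0.90); 1 rose with median centring or without day 5 replicate 1. TUB5, a beta-tubulin gene, dropped from 8.89, 8.85 and 8.90 to 3.66, 4.41 and 4.27 (-4.77, SE 0.20, adjusted p = 2.06e-06), down to the range of the filter value, so that 27.2-fold is an uncertain size. TUB9 fell by 1.51 (adjusted p = 9.79e-05), TUB6 by 1.23, TUA6 by 0.89 and SPR1, which guides microtubule growth, by 0.91. The LIM-domain genes WLIM2a and WLIM1, whose proteins bundle actin filaments, fell from 7.93, 7.85 and 7.98 to 3.69, 4.13 and 4.33 (-3.87, adjusted p = 3.44e-06) and from 8.47, 8.37 and 8.37 to 4.88, 6.04 and 5.95 (-2.78, adjusted p = 0.000168).

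Of 18 cell wall growth genes 9 fell and 4 rose (median -0.73, or -1.41 with the filter at the 60th percentile). The expansin gene EXPA8, whose protein loosens walls during growth, went from 7.25, 7.0 and 7.46 to 3.68, 4.76 and 5.83 (-2.48, SE 0.46, adjusted p = 0.00328), EXPB3 from 6.75, 6.99 and 7.55 to 4.26, 5.04 and 5.27 (-2.24, adjusted p = 0.000582). The endoglucanase gene GH9B7 fell by 1.45 (adjusted p = 0.00129), CSLC04, which makes the xyloglucan backbone, by 2.13 (adjusted p = 0.00146) and COB, needed for oriented cell expansion, by 1.38 (adjusted p = 0.0066). In all 5 genes day 5 replicate 1 was the lowest array, and 9 genes fell without it too. The 4 rises were EXLB1, an expansin-like gene, from 7.31, 7.19 and 6.79 to 8.86, 9.32 and 8.56 (1.82, adjusted p = 0.000364), the xyloglucan endotransglucosylase genes XTH19 (1.18) and EXGT-A3 (1.13), and the expansin gene EXPA15 (1.07), which did not pass without day 1 replicate 1 or 3. Of 14 trichome birefringence-like genes, several of which acetylate wall polysaccharides, 5 fell and 2 rose: TBL45 fell by 2.39 (adjusted p = 0.000222) and TBL38 rose by 1.94 (adjusted p = 0.000877). The 5 falls became 3 with median centring or quantile normalization and 2 without day 1 replicate 2 or 3.

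Antioxidant genes changed in both directions. Of 12 tested, 3 rose and 7 fell (median -0.45). The glutathione reductase genes GR1 and GR rose by 1.4 (from 8.62, 8.73 and 8.87 to 10.23, 10.00 and 10.21, adjusted p = 8.83e-05) and 0.54 (adjusted p = 0.0124, lost without day 1 replicate 2), and so did SAPX, the ascorbate peroxidase of stroma and mitochondria, by 1.1 (adjusted p = 0.00195). TAPX, the thylakoid ascorbate peroxidase, fell by 1.07 (adjusted p = 0.0105). Among the methionine sulfoxide reductase genes, which repair oxidised proteins, MSRB6 fell from 8.33, 7.55 and 7.79 to 3.38, 5.43 and 5.09 (-3.26, adjusted p = 0.00115), and MSRB9 (-1.49) and MSRB5 (-1.11) were lower too. The ascorbate synthesis genes VTC4 and GLDH fell by 0.78 (adjusted p = 0.00371) and 0.52 (adjusted p = 0.0159), and GLDH did not pass without day 1 replicate 1 or 3 or day 5 replicate 2.

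The 4 light and clock genes tested, of 81 on the list with a locus, all changed, 2 in each direction. AFR, an F-box protein of far-red light signalling, rose 10.6-fold from 6.95, 6.53 and 6.81 to 10.12, 10.11 and 10.29 (3.41, SE 0.14, adjusted p = 2.06e-06), and HYH, a bZIP factor of light signalling, rose by 1.62 (adjusted p = 0.00119). COR27, a cold-regulated gene tied to the clock, fell from 7.86, 7.91 and 7.5 to 4.1, 4.06 and 3.42 (-3.9, adjusted p = 7.89e-06), and GI, a clock component, from 8.78, 9.05 and 8.64 to 7.69, 6.57 and 6.71 (-1.83, adjusted p = 0.00128). Clock genes follow the hour of harvest, which the labels do not give for either day; its part in these changes was not tested.

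Of 7 auxin genes 3 rose and 2 fell. IAGLU, which joins glucose to auxin, rose by 1.43 (adjusted p = 0.000249), the homeodomain gene HAT2 by 1.01 and the auxin response repressor gene IAA18 by 0.51, while IAA29 fell by 0.96 (adjusted p = 0.000294), with no overlap between the days in any of the 4. The list's 2 falls became 1 without day 1 replicate 2 or 3 or without day 5 replicate 2. Among 9 jasmonate, salicylate and ethylene genes 1 rose, the jasmonate factor MYC4 by 0.95 (adjusted p = 0.00311), and 3 fell, of which the defensin gene PDF1.2 had the widest spread, with 5.72, 4.64 and 7.53 on day 1 and 3.29, 3.9 and 3.15 on day 5 (-2.52, SE 0.62, adjusted p = 0.0127). The share of this list that changed, 44.4%, was near that of all probe sets. The 3 falls became 1 without day 1 replicate 1 or 3 and 5 without day 5 replicate 2.

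Surface and phenolic genes included 2 of the 10 largest rises among genes with a symbol. Of 6 wax, cutin and lignin genes 3 rose and 1 fell. WSD1, which makes wax esters of the stem surface, rose from 6.13, 5.91 and 6.28 to 8.25, 8.45 and 9.05 (2.48, adjusted p = 6.79e-05), and CCR2, a cinnamoyl-CoA reductase of the lignin pathway, from 4.14, 4.64 and 4.65 to 7.44, 6.84 and 7.12 (2.66, adjusted p = 4.20e-05). HCT, an acyltransferase of the same pathway, rose by 0.65 (adjusted p = 0.00241), and AT4G13840, the wax gene CER26, fell by 1.4 (adjusted p = 0.00316). Of 6 flavonoid genes 2 rose, among them the flavonol glucosyltransferase gene UGT78D2 by 0.86 (adjusted p = 0.00197), and 1 fell. The share that changed was 50%, against 41.8% of all probe sets. In place of 2 rises 1 passed without day 1 replicate 1 or 2 or without day 5 replicate 1 or 3. Without day 5 replicate 1, 2 falls passed, and none without day 1 replicate 3. Of the 3 ion transport genes measured, the vacuolar proton pump subunit genes VHA-A2 and VHA-A3 differed by 0.37 (adjusted p = 0.0427) and -0.32 (adjusted p = 0.0475), and neither passed without day 5 replicate 1 or 2 or without any 1 of the day 1 arrays.

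**Figure D3:**
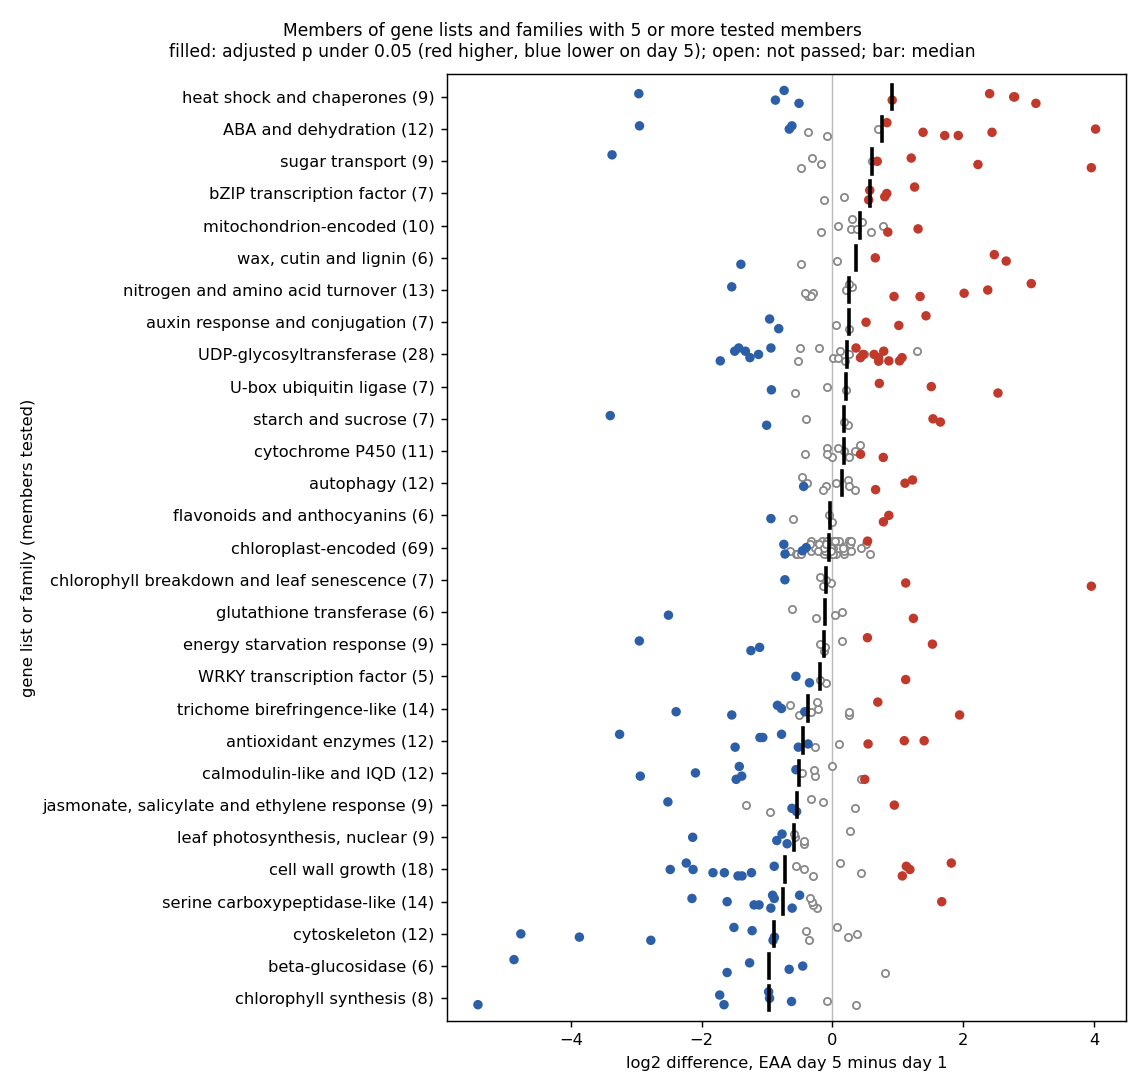
Log2 difference between day 5 and day 1 with EAA for each tested member of the gene lists and families with at least 5 tested members, filled where the adjusted p was under 0.05 (red higher, blue lower) and open otherwise, with the median as a bar. Lists run from chlorophyll synthesis (median -0.97) to heat shock and chaperones (median 0.91), and most hold members on both sides of 0.

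Among enzyme families, beta-glucosidases and serine carboxypeptidase-like genes lay mostly on the lower side. Of 6 beta-glucosidase genes 5 fell and none rose. BGLU44 fell 29.3-fold from 11.23, 11.13 and 11.11 to 6.03, 7.04 and 5.78 (-4.87, SE 0.29, adjusted p = 1.23e-05), while BGLU16 fell by 1.61 (adjusted p = 0.000367) and BGLU42 fell by 1.27 (adjusted p = 0.000455); the remaining gene, BGLU40, stood at 0.80 (adjusted p = 0.108) and rose without day 5 replicate 1. Of 14 serine carboxypeptidase-like genes 9 fell and 1 rose, with scpl35 from 7.79, 7.67 and 7.73 to 5.20, 5.51 and 6.03 (-2.15, adjusted p = 0.00011) and SCPL45 by -1.61 (adjusted p = 0.00012) among the falls. The rise was scpl33, from 3.58, 3.41 and 3.28 to 4.87, 5.18 and 5.23 (1.67, adjusted p = 7.14e-05), a gene whose day 1 signals lay under 4.01.

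UDP-glycosyltransferases, which attach sugars to hormones and secondary metabolites, were the family with the most genes tested. Of these 28 genes 10 rose and 7 fell (median 0.22, or 0.13 without day 5 replicate 1, 0.33 without day 5 replicate 2 or with median centring and 0.37 without day 5 replicate 3). UGT73B1 fell by 1.72 (adjusted p = 0.000196), UGT85A4 by 1.43 (adjusted p = 0.000217), UGT85A2 by 1.33 (from 6.89, 6.90 and 7.01 to 5.58, 5.62 and 5.60, adjusted p = 7.67e-05) and UGT71C5 by 1.13 (adjusted p = 0.000259). With all 18 arrays in the fit 6 in place of 10 genes rose. Genes of this family are close in sequence, so a probe set may also take up the signal of a relative. Among 12 genes of calmodulin-like and calmodulin-binding IQD proteins, which read calcium signals, 6 fell and 1 rose; none rose without day 1 replicate 3 and 2 without day 5 replicate 3. The gene iqd21 fell from 7.44, 7.40 and 7.39 to 4.31, 4.58 and 4.53 (-2.94, SE 0.13, adjusted p = 2.64e-06), IQD22 by 2.1 (adjusted p = 0.000103), IQD31 by 1.47 (adjusted p = 0.000345) and the calmodulin-like gene CML42 by 1.39 (adjusted p = 0.00029).

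Several of the largest changes lay outside these groups. SIS, a salt-induced serine-rich protein, rose from 7.45, 7.96 and 7.46 to 10.40, 10.01 and 10.01 (2.52, adjusted p = 2.97e-05). The F-box gene SKP2A rose by 1.95 (adjusted p = 2.83e-05), the ubiquitin-conjugating enzyme gene UBC32, which acts in protein degradation at the endoplasmic reticulum, by 1.87 (adjusted p = 3.12e-05) and the signalling peptide gene RALFL32 by 1.74 (adjusted p = 0.000145). AGL19, a MADS-box gene known to promote flowering, went from 3.49, 3.36 and 3.4, under the filter value, to 5.82, 5.36 and 5.15 (2.03, adjusted p = 7.15e-05). LCR69, a defensin-like gene, fell from 10.04, 10.11 and 9.84 to 5.82, 6.64 and 6.27 (-3.75, adjusted p = 7.81e-06) and CHL, the chloroplast lipocalin, from 9.69, 9.82 and 9.89 to 6.58, 6.84 and 7.11 (-2.95, adjusted p = 6.41e-06). The gene ACA.l dropped by 2.85 (adjusted p = 0.000201), and the jasmonate-regulated gene JRG21 by 2.48 (adjusted p = 0.00333), with day 5 replicate 2 the nearest to day 1.

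Among genes known here by locus code alone, AT3G17520 rose 45.2-fold, from 4.23, 4.26 and 5.14 to 9.93, 10.12 and 10.08 (5.50, SE 0.24, adjusted p = 2.56e-06), followed by AT2G20560 (4.63), AT5G01300 (4.49), AT2G21820 (4.24) and AT5G47610 (3.54). AT4G30650 fell 62.1-fold, from 11.70, 11.66 and 11.72 to 5.89, 5.83 and 5.49 (-5.96, SE 0.13, adjusted p = 3.20e-07), followed by AT2G39920 (-5.65), AT5G62360 (-5.50), AT1G56300 (-5.49) and AT4G34950 (-5.25). In all 10 the day 1 and day 5 arrays lay far apart.

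Most of the change over time was present in the salt reference too, whose 2 days share no array with the EAA comparison. In the reference 5367 probe sets changed (39.3%). Of the 2568 rises with EAA 1738 were also rises there (67.7% of the EAA rises and 69.7% of the 2494 reference rises), and of the 3135 falls 2270 were (72.4% and 79% of 2873). Only 5 probe sets changed in opposite directions, 1 EAA rise and 4 EAA falls. Across the 13648 probe sets, which do not vary independently, the 2 sets of differences correlated at r = 0.896. The fall of PORB was -5.42 with EAA and -5.27 in the reference, that of TUB5 -4.77 and -4.65, and that of AT4G30650 -5.96 and -6.01.

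Some of the rises named above were larger with EAA than in the reference by value, but the differences between their time changes did not pass. The median of the ABA and dehydration list was 0.76 with EAA and 0.53 in the reference. For the heat shock and chaperone list it was 0.91 and 0.46. Other lists went the other way. The median of the sugar transport list was 0.60 with EAA and 1.18 in the reference. For flavonoids it was -0.04 and 0.40, and for the Calvin cycle and photorespiration -0.01 and 0.47. LEA4-5 differed between the days by 4.02 with EAA and by 1.92 in the reference (difference of the changes 2.1, SE 0.78, adjusted p = 0.353). SAG29 differed by 3.96 and 1.86 (adjusted p = 0.276), DI21 by 1.92 and 0.64 (adjusted p = 0.292), Hsp70-2 by 2.4 and 1.37 (adjusted p = 0.313) and AT3G17520 by 5.50 and 1.96 (adjusted p = 0.145). For LEA4-5 the reference arrays of day 5 ranged widely, at 8.98, 6.0 and 7.78, and for SAG29 at 9.93, 7.85 and 7.33. The lysine breakdown gene AT4G33150 rose by 2.37 with EAA against -0.38 in the reference and missed the threshold narrowly (difference 2.75, SE 0.54, adjusted p = 0.0544).

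**Figure D4:**
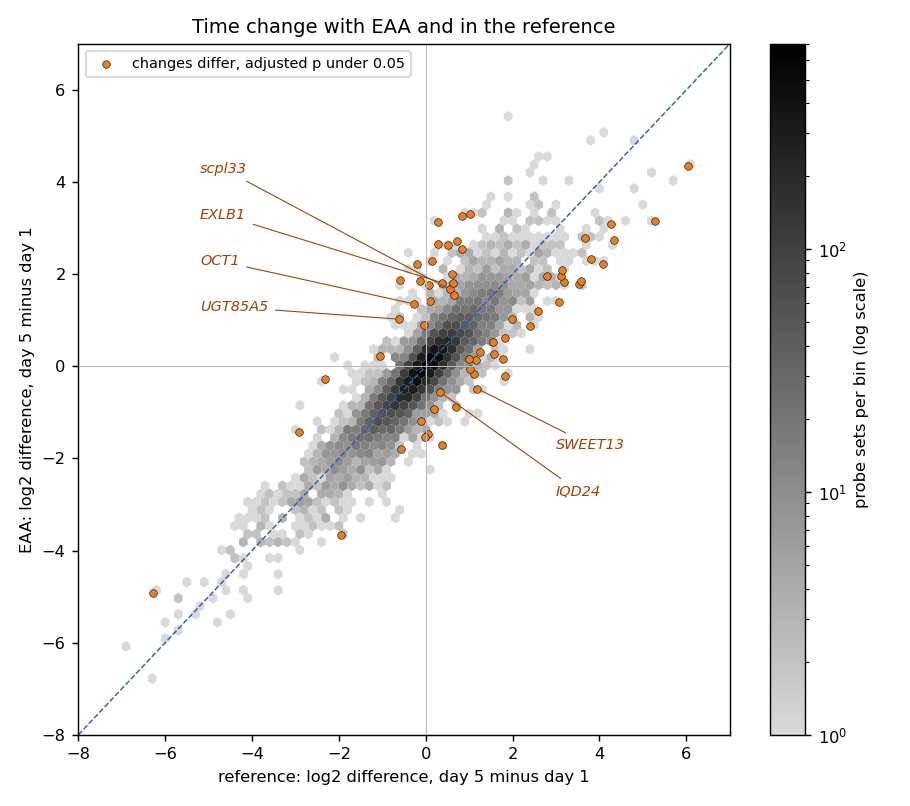
Log2 difference between day 5 and day 1 in the reference (x axis) and with EAA (y axis) for 13648 probe sets, shaded by number of probe sets per bin, with the line of equal change dashed. The 62 probe sets whose time changes differed (orange, 6 with a gene symbol named) lie off a cloud that follows the line.

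The time change with EAA differed from that in the reference for 62 probe sets (0.454% of those tested), 25 with a higher and 37 with a lower difference with EAA. In 27 of them the change with EAA had the same sign and was smaller, in 19 it had the same sign and was larger, and in 16 the signs were opposite. Of the 62 probe sets 28 pair with 1 gene, and 6 of those genes have a symbol. The count depended on single arrays. It was 12, 19 and 11 without EAA day 1 replicate 1, 2 or 3, 14, 13 and 26 without reference day 1 replicate 1, 2 or 3, 35 and 34 without EAA day 5 replicate 1 or 2, 15 without reference day 5 replicate 3 and 127 without reference day 5 replicate 1.

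SWEET13, a sucrose exporter of the leaf phloem, had the smallest adjusted p among genes with a symbol. Its signals with EAA were 8.17, 8.36 and 7.70 on day 1 and 7.43, 7.77 and 7.58 on day 5, a difference of -0.48 that did not pass by itself (adjusted p = 0.0667). In the reference they went from 7.38, 7.22 and 7.24 to 8.29, 8.48 and 8.62 (1.18, adjusted p = 0.000272). The difference between the changes was -1.67 (SE 0.23, adjusted p = 0.0123), and with EAA all day 1 arrays lay above the reference of that day and all day 5 arrays below. UGT85A5, a glycosyltransferase gene, moved the other way: with EAA from 5.46, 6.06 and 5.65 to 6.91, 6.89 and 6.44, in the reference from 6.68, 6.89 and 6.50 to 6.03, 6.03 and 6.16 (difference 1.64, SE 0.25, adjusted p = 0.0204).

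OCT1, which encodes a transporter of organic cations such as carnitine, stood on the EAA arrays at 3.51, 3.44 and 3.49 on day 1 and 5.18, 5.04 and 4.29 on day 5, and in the reference at 3.41, 4.07 and 3.84 and 3.63, 3.32 and 3.56, all 6 near or under the filter value (difference 1.63, adjusted p = 0.047). The expansin-like gene EXLB1 stood in the reference at 7.10, 7.24 and 6.99 and 7.58, 7.22 and 7.64, so that only the EAA day 5 arrays, at 8.56 and above, left the common range (difference 1.44, adjusted p = 0.0499). The carboxypeptidase-like gene scpl33 rose by 1.67 with EAA and by 0.55 in the reference (adjusted p of the difference = 0.047). IQD24 fell by 0.56 with EAA (from 6.92, 6.93 and 7.16 to 6.27, 6.42 and 6.64) and rose by 0.33 in the reference (adjusted p of the difference = 0.047). SWEET13 passed with 11 of the 12 arrays left out in turn, UGT85A5 with 7 and the other 4 genes with 2 or fewer. With all 18 arrays in the fit none of the 6 passed: the adjusted p was 0.371 for SWEET13, 0.686 for IQD24, 0.788 for UGT85A5 and 0.996 for OCT1, EXLB1 and scpl33.

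**Figure D5:**
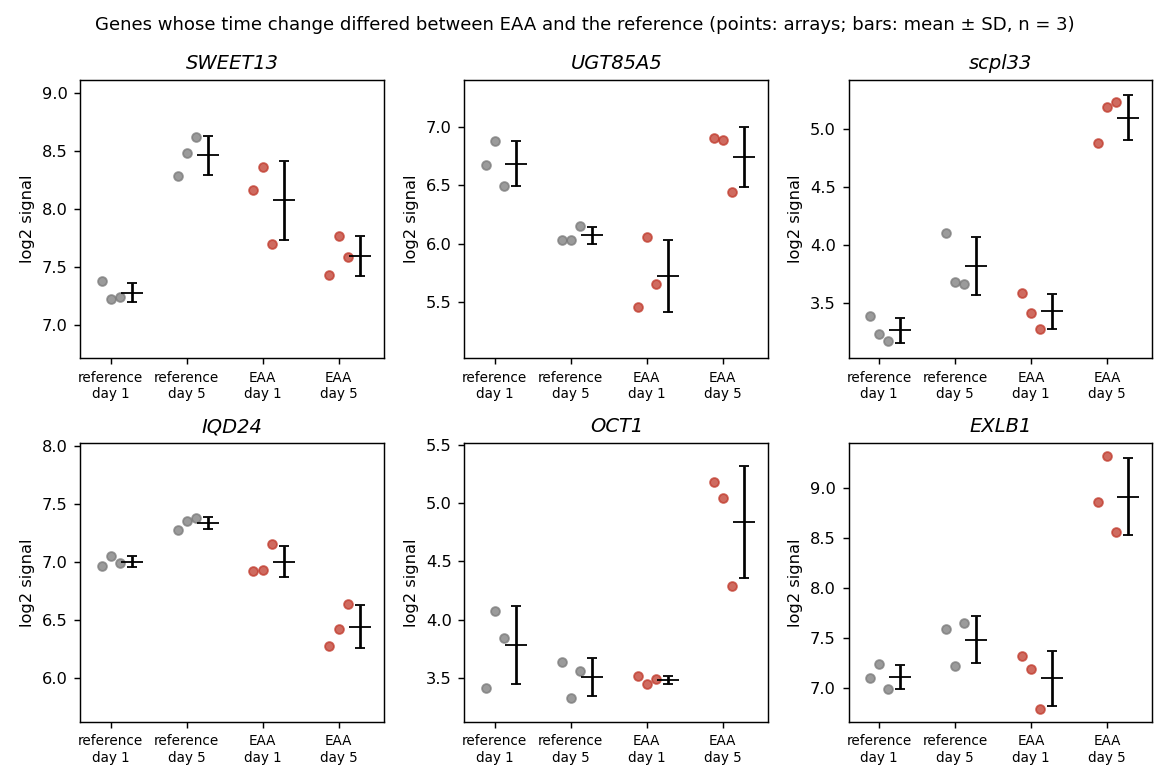
Log2 signal on each array (points) with mean ± SD (n = 3) for the 6 named genes whose time change differed between EAA (red) and the reference (grey); the y axes do not start at 0 and differ between panels. SWEET13 runs up in the reference and down with EAA, while EXLB1, OCT1 and scpl33 are highest on the EAA day 5 arrays.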

How the data were processed

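Total RNA from leaves was labelled from poly(A) RNA and hybridised to Affymetrix arrays, per the labels' protocols. The deposited values are log2 signals, as judged from their range; MAS5 is the tool named in the submitters' processing notes, with its summary method, scaling and step to logs not given in the sources used here. Values were used as deposited. Probe sets were named through GEO's platform annotation, with symbols brought up to date from RefSeq (assembly TAIR10.1). Of 22810 probe sets 64 were controls, 13513 had 1 gene (13436 matched the RefSeq table, 1580 with a symbol), 503 several, and the rest are unnamed here. The probe set with the highest mean represents a gene.

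The 6 EAA arrays were modelled in R 4.3.3 with limma 3.58.1 (lmFit, eBayes with intensity trend; 4 residual degrees of freedom), and together with the 6 reference arrays for the difference between time changes. Benjamini-Hochberg adjustment ran over all probe sets tested. The arrays with the methanol extract entered alternatives only, since their day 5 spread (median SD 0.337) was the widest. The models were run on simulated data with independent noise for each probe set and few changed probe sets. Such data lack effects shared by an array, so that run does not test the models for arrays like these. Same-numbered samples were not treated as pairs: the correlations of their deviations were -0.054, -0.046 and 0.116. Tables and plots used Python 3.11.15, pandas 2.3.3 and matplotlib 3.10.9.

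The comparison, gene lists and families were chosen with earlier results of these data known, and 16 list entries were set by gene identity. Named genes are the 25 largest rises and 25 largest falls with non-overlapping arrays and a symbol, 5 and 5 with a locus code, up to 4 members of each list by adjusted p, and the 10 smallest p-values with a symbol for the difference between time changes; the text leaves some out. Markers and further members of a described list were added after their values were seen.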

Additional observations from a re-analysis of the deposited data

Results flagged for a closer look

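The change from day 1 to day 5 differed between EAA and the reference, by a test of the difference itself, for 62 probe sets, among them 6 named genes. SWEET13 (-1.67) and IQD24 (-0.89) had a lower difference with EAA. UGT85A5 (1.64), OCT1 (1.63), EXLB1 (1.44) and scpl33 (1.12) had a higher one. Each value rests on the reference arrays, whose labels conflict, and on 3 samples per group.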

How the results depend on the processing

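All 15 alternative fits of the 6-array comparison kept the count of 5703 changed probe sets within 1.5 times: the fits on the 6 EAA arrays with other settings gave 4181 (60th percentile filter) to 7231 (array quality weights), leaving out 1 array 3945 to 6055, and fits with all 18 arrays 4999. Stricter thresholds gave 3427 at an adjusted p under 0.01 and 2164 with a change of at least 2-fold as well. In the same direction, 5079 of the calls held with median centring, 5383 with quantile normalization and 4694 with all 18 arrays. The 175 calls among gene list members became 132 to 195 with 1 array left out and 139 (60th percentile filter) to 214 (array quality weights) otherwise. Array quality weights also moved AMY1 to -0.64, EXPA15 to 0.65 and JRG21 to -1.64. The count of 62 probe sets whose time changes differed was 35 with the 60th percentile filter, 313 with array quality weights, 1 with all 18 arrays (653 at an unadjusted p under 0.05, against 1400), 101 with 15 arrays, and 11 to 127 with 1 array left out. With all 18 arrays the 6 named genes of this comparison had adjusted p-values of 0.371 (SWEET13) to 0.996 (EXLB1, OCT1 and scpl33). The replicate number as a block gave 5389 changed probe sets and 28 whose time changes differed; the numbers were not taken to pair the samples. Of 154 genes named with values 148 had changed, and 116 of them did so under each alternative run; of the 2193 values 95 no longer passed, 62 of these with 1 array left out and 16 with all 18 arrays (among them APL4, ATG8B, DI21, EXPA8, IAA29, MSRB9, PDF1.2 and scpl33), and none changed sign. Of the leaf markers, PRK, not called, was -0.464 without EAA day 5 replicate 3 and 0.124 without EAA day 5 replicate 1, and SBPASE, not called, was -0.172 without EAA day 5 replicate 3, 0.107 with median centring, 0.0737 with quantile normalization, 0.114 with array quality weights, 0.031 without EAA day 1 replicate 3 and 0.221 without EAA day 5 replicate 1. The cause of these shifts was not tested. With 3 arrays a group and no read depth, precision is limited by the number of arrays, and near the filter value of 4.01 the size of a change is uncertain.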

Other observations

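Transcription factor and protein turnover families were not described above. Of 7 tested bZIP transcription factor genes 5 rose and none fell (median 0.57): bZIP44 from 5.85, 6.15 and 5.58 to 7.14, 7.03 and 7.18 (1.26, limma adjusted p = 0.000582), BZIP28 and BZIP17, which are held in the endoplasmic reticulum membrane until that compartment is stressed, by 0.83 (adjusted p = 0.00116) and 0.55 (adjusted p = 0.0223), BZIP24, a regulator of the salt response, by 0.80 (adjusted p = 0.00215), and bZIP19, a sensor of zinc deficiency, by 0.57 (adjusted p = 0.00503). BZIP17 did not pass without day 1 replicate 1 or 3 or without day 5 replicate 2.

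Of 7 U-box ubiquitin ligase genes 3 rose and 1 fell. PUB19, known to dampen ABA and drought responses, rose from 7.46, 8.24 and 8.01 to 10.58, 10.35 and 10.36 (2.53, adjusted p = 4.42e-05), PUB25 by 1.51 (adjusted p = 0.00198) and PUB26 by 0.72 (adjusted p = 0.00166), while PUB24 fell by 0.93 (adjusted p = 0.00545); 2 fell without day 5 replicate 2. Among 6 glutathione transferase genes GSTU16 rose by 1.24 (adjusted p = 0.000194) and GSTU20 fell from 11.17, 10.79 and 11.13 to 7.15, 9.34 and 9.06 (-2.51, adjusted p = 0.00483), with day 5 replicate 1 lowest; 2 fell without day 5 replicate 3. Of 11 cytochrome P450 genes 2 rose, CYP71B26 by 0.78 (adjusted p = 0.00294) among them, and 1 without day 1 replicate 1 or 3 or day 5 replicate 2.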
